A study of Mus musculus with 2 samples.

Results

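The genes described here encode the layered protein scaffold under the membrane of excitatory synapses: *Dlg1*, *Dlg2*, *Dlg3* and *Dlg4*, *Dlgap1*, *Dlgap2* and *Dlgap3*, and *Shank1*, *Shank2* and *Shank3*. They were chosen by gene symbol, and all 10 are found among the 37303 genes of the deposited table, with 94 of its 90835 isoforms. RNA had been sequenced from the cerebral cortex of 1 wild-type (WT) mouse sample and 1 *Rbfox3*-/- (KO) sample, both labelled strain B6. By the study's methods these were P56 males and the tissue was the right cortical hemisphere. The KO allele, *Rbfox3* tm1a on C57BL/6N, is constitutive, and WT mice were littermates from matings of heterozygotes. RBFOX3, the antigen of the neuronal marker NeuN, is an RNA-binding protein of neurons that regulates splicing. *Rbfox3* RNA was at 57.3 (WT) and 6.46 FPKM (KO), 8.87-fold lower. FPKM is the number of sequenced fragments divided by the transcript length and by the size of the library, so levels can be compared between genes.

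The DLG proteins (PSD95, encoded by *Dlg4*, and its relatives SAP97, PSD93 and SAP102) are membrane-associated guanylate kinases. Their PDZ domains hold the tails of receptors, ion channels and adhesion proteins at the membrane. Their guanylate kinase domain, which has no kinase activity, binds the DLGAP proteins (also called GKAP or SAPAP). The end of a DLGAP protein in turn binds the PDZ domain of a SHANK protein, and SHANK proteins bind HOMER and actin regulators deeper in the postsynaptic density. Mutations of human *DLG3* and of human *SHANK* genes are known causes of intellectual disability and autism.

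Sequences are shown from the start of the DLG genes, the layer at the membrane, and from the end of the DLGAP genes, which contacts the SHANK layer. The first coding bases of the DLG genes are given first, as read from the GENCODE vM21 transcripts of GRCm38, with cysteine codons in capitals. In PSD95 and PSD93, cysteines at this end are known to carry the palmitate that anchors the protein in the membrane.
Dlg1: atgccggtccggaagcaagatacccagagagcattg
Dlg2: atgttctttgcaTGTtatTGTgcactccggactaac
Dlg3: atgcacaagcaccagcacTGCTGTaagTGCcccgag
Dlg4: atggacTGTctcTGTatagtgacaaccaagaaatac
Dlg4, another start: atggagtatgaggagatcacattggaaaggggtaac

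The *Dlg2* start (chromosome 7, 91091007 to 91091042, plus strand) has cysteine codons at positions 5 and 7, and 2 of 5 complete coding transcripts begin with it. The cysteine codons of the *Dlg4* start are at positions 3 and 5. This start begins at 70018920 on chromosome 11, is split by an intron and opens 3 of 9 transcripts, and 1 more begins with a variant of it that has the same cysteine codons. The *Dlg4* start without cysteine that is printed opens 3 of 9, and another without cysteine opens 2. In *Dlg3* (chromosome X, 100768072 to 100768107, plus strand) the codons are at positions 7, 8 and 10 and open 3 of 4 transcripts. The *Dlg1* start has none and opens 5 of 6. In all, the 4 genes have 12 distinct coding starts, of which 4 hold at least 2 cysteine codons.

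The last coding bases before the stop codon are shown for the DLGAP genes, with the last 4 codons in capitals. *Dlgap4*, the other member of that family, and the NMDA receptor subunit genes *Grin2a* and *Grin2b*, whose proteins bind the PDZ domains of PSD95 by the same kind of tail, are shown for comparison.
Dlgap1: atctacatccccgaggcgCAGACCCGGCTC
Dlgap2: atctacatccctgaggccCAGACGCGGCTC
Dlgap3: atctacatccccgaggccCAGACCAGGCTG
Dlgap4: atttatgtccccgaggccCAGACCAGGCTC
Grin2a: aagaaaatgcctagtattGAATCTGATGTC
Grin2b: gagaaactttctagtattGAGTCTGATGTC

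The printed ends close 8 of 10 complete coding transcripts of *Dlgap1*, 4 of 4 of *Dlgap2*, 3 of 3 of *Dlgap3* and 6 of 7 of *Dlgap4*. For *Grin2a* it is 3 of 3 and for *Grin2b* 2 of 3. In these ends the capitals differ in bases among the DLGAP genes but encode the same 4 residues in all 4 of them. The tails of *Grin2a* and *Grin2b* likewise share their last 4 residues, which are not those of the DLGAP genes. These ends lie on chromosome 17 from 70818202 to 70818231 for *Dlgap1*, on chromosome 8 from 14846676 to 14846705 for *Dlgap2* and on chromosome 4 from 127236336 to 127236365 for *Dlgap3*. Over the whole translated coding sequence, identity was 65.9% to 75.3% between DLG genes, 48.6% to 57.7% between DLGAP genes and 49.5% to 52.1% between SHANK genes. No run of 50 bases was shared by any of the 45 pairs of genes (0 runs), so long stretches of RNA that could be assigned to the wrong family member were not found in these transcripts.

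RNA levels of the scaffold genes were close in the WT and the *Rbfox3*-/- library. *Dlg2* and *Dlgap2* were higher in the KO library by 1.21-fold and 1.34-fold, *Dlg3* and *Dlg4* were lower by 1.15-fold and 1.14-fold, and the other members lay between. The order of the 10 genes by level was the same in both libraries: *Dlgap1*, *Dlg4*, *Dlg2*, *Dlg1*, *Shank1*, *Dlg3*, *Dlgap3*, *Shank2*, *Shank3* and *Dlgap2*. With 1 library per genotype no test exists and the spread between mice is not known, so every difference below describes these libraries.

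**Figure D1:**
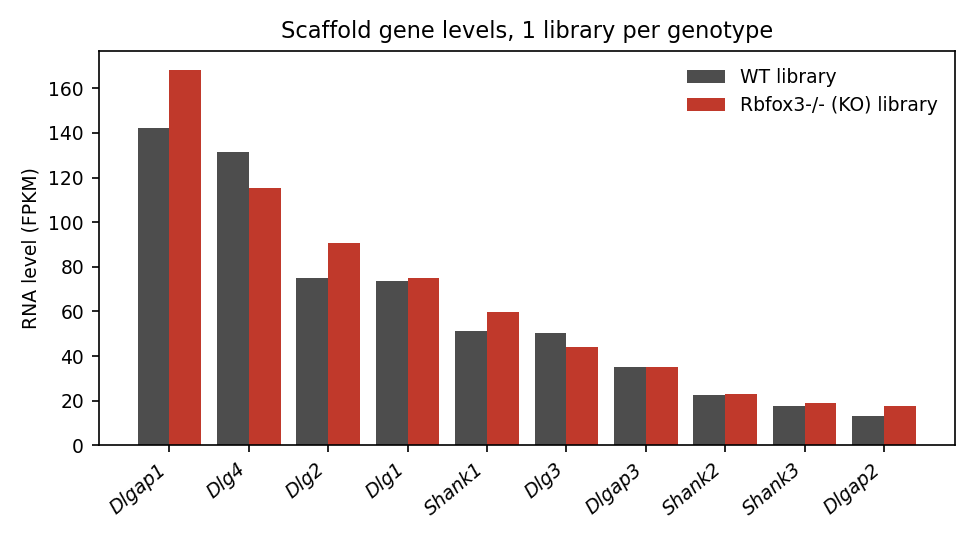
RNA level in FPKM (linear axis from 0) of the 10 scaffold genes in the WT library (grey) and the KO library (red), 1 library per genotype and therefore no error bars. Genes are ordered by their WT level, and the KO bars follow the same order, from *Dlgap1* at 142 and 168 FPKM to *Dlgap2* at 13.1 and 17.5 FPKM.

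Among the DLG genes, *Dlg4* (ENSMUSG00000020886, chromosome 11, 70017085 to 70045532), which encodes PSD95, the main scaffold of mature excitatory synapses, was the most abundant. It was at 131 FPKM (WT) against 115 FPKM (KO), a log2 ratio of -0.19. *Dlg2* (ENSMUSG00000052572, chromosome 7, 91090706 to 92447003) encodes PSD93, the closest functional relative of PSD95 at cortical synapses. Its RNA measured 74.9 FPKM (WT) and 90.8 FPKM (KO) (log2 ratio 0.28). On the deposited scale the differences of *Dlg2* and *Dlg4* (KO minus WT) were 15.9 and -16.0 FPKM. Their near-equal size depended on that scale. With both libraries rescaled to equal totals, the log2 ratios were 0.42 for *Dlg2* and -0.04 for *Dlg4*.

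*Dlg1* (ENSMUSG00000022770, chromosome 16, 31663443 to 31873356) encodes SAP97, which takes part in the traffic of AMPA receptors. It was at 73.6 (WT) and 75.0 FPKM (KO), with a log2 ratio of 0.03. In WT the levels of *Dlg1* and *Dlg2* lay within 2 FPKM of each other, and in KO they were further apart. *Dlg3* (ENSMUSG00000000881, chromosome X, 100767722 to 100818410) encodes SAP102, the family member known to dominate in young synapses. Its level was 50.5 FPKM (WT) and 44.0 FPKM (KO) (log2 ratio -0.19).

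On the deposited scale the summed level of the 4 DLG genes was nearly equal, at 330 FPKM in the WT library and 325 FPKM in the KO library. With both libraries rescaled to equal totals, the KO to WT ratio of this sum was 1.09. The make-up of the sum differed. *Dlg2* made up 22.7% of it in WT and 27.9% in KO, 5.26 percentage points more. *Dlg4* made up 39.8% in WT and 35.5% in KO, a difference of -4.29 points. The share of *Dlg1* was 22.3% and 23.1%, and that of *Dlg3* was 15.3% and 13.5%. A share of a family does not depend on how the libraries are scaled to each other.

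The DLGAP genes, which form the middle layer, summed to 190 FPKM (WT) and 221 FPKM (KO), a ratio of 1.16. *Dlgap1* (ENSMUSG00000003279, chromosome 17, 69969073 to 70821413), which encodes GKAP, accounted for most of this. It was the most abundant of all 10 genes, at 142 (WT) and 168 FPKM (KO) (log2 ratio 0.24). *Dlgap2* (ENSMUSG00000047495, chromosome 8, 14095865 to 14847680), the least abundant, was at 13.1 FPKM (WT) against 17.5 FPKM (KO), and its log2 ratio of 0.39 was the largest of the members. *Dlgap3* (ENSMUSG00000042388, chromosome 4, 127169204 to 127237022), whose loss in mice is known to cause compulsive grooming through circuits of the striatum, was at 35.1 FPKM (WT) against 35.2 FPKM (KO). Within the family *Dlgap3* made up 18.4% in WT and 15.9% in KO, *Dlgap1* 74.7% and 76.2%, and *Dlgap2* 6.88% and 7.93%. *Dlgap4*, which is not a member here, was at 46.8 FPKM (WT) and 47.7 FPKM (KO).

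The SHANK genes, which encode the innermost layer, summed to 91.6 FPKM (WT) and 102 FPKM (KO), a ratio of 1.11. *Shank1* (ENSMUSG00000038738, chromosome 7, 44310253 to 44358351) was at 51.2 (WT) and 59.7 FPKM (KO) (log2 ratio 0.22), and its share of the family was 55.9% and 58.6%. SHANK1 is known to promote the maturation of dendritic spines. *Shank2* (ENSMUSG00000037541, chromosome 7, 144001928 to 144424494) was at 22.7 FPKM (WT) against 23.2 FPKM (KO) (log2 ratio 0.03). *Shank3* (ENSMUSG00000022623, chromosome 15, 89499623 to 89560261), the gene lost in human Phelan-McDermid syndrome, was at 17.7 FPKM (WT) and 19.0 FPKM (KO) (log2 ratio 0.10). *Shank2* made up 24.8% of the family in WT and 22.8% in KO, and *Shank3* 19.3% and 18.7%.

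Log2 ratios were taken after 1 FPKM was added to both values, and a difference was counted when this ratio reached 1.2-fold. By this count 2 of the 10 genes, *Dlg2* and *Dlgap2*, were higher in KO and 0 were lower, and at 2-fold the count was 0 in both directions. Of the 13042 genes averaging at least 1 FPKM, 10.8% were 1.2-fold higher and 8.14% were 1.2-fold lower. Past 2-fold these shares were 0.491% and 0.583%. All 10 members averaged at least 10 FPKM, and among the 6561 genes at that level 8.58% were 1.2-fold higher and 6.39% lower. The members' counts are too small to be set apart from these shares. *Dlg2* lay just past the threshold of 0.26 on the log2 scale and *Dlgap1*, at 0.24, just under it.

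The median log2 ratio of the members was 0.07, with 8 above 0 and 2 below, against 0.01 for all genes with at least 10 FPKM, of which 53.6% were above 0. The central 95% of those genes lay between -0.37 and 0.42, and all members lay inside it. Ratios as large as that of *Dlgap2*, in either direction, were found for 5.14% of these genes, as large as that of *Dlg2* for 13.5%, *Dlgap1* for 17.5% and *Shank1* for 21.9%. For *Dlg3* and *Dlg4* the shares were 26.4% and 28.5%.

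**Figure D2:**
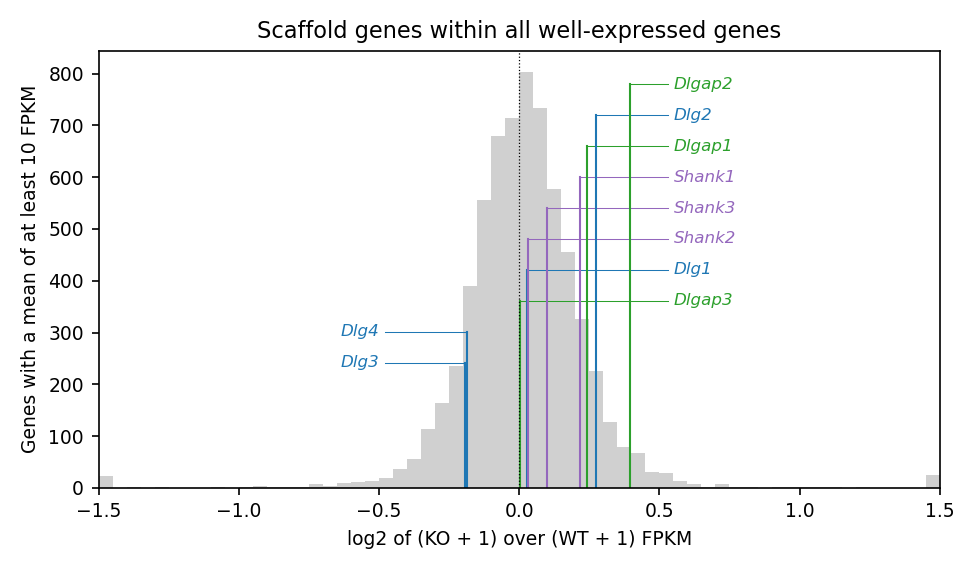
Histogram of the log2 of (KO + 1) over (WT + 1) FPKM of the 6561 genes averaging at least 10 FPKM (grey, linear count axis; values beyond the ends of the axis are counted in the end bins), with a vertical line for each scaffold gene coloured by family. The lines run from -0.19 for *Dlg3* to 0.39 for *Dlgap2* and all fall within the body of the distribution; the heights of the lines only separate the names.

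Transcript length moved with the ratios. Among the genes with at least 10 FPKM, the 1683 with an annotated transcript of at least 5 kb had a median log2 ratio of 0.11, and 76.3% of them were above 0. The 4818 genes with shorter transcripts had a median of -0.02, with 45.9% above 0. Such a long transcript is annotated for 8 of the scaffold genes, all but *Dlgap2* and *Dlgap3*, and the members' median of 0.07 lay between those of the long and the short genes. The longest annotated transcript has 4503 bases for *Dlgap2*, which had the largest ratio of the members. It has 5017 bases for *Dlg3* and 6326 for *Dlg4*, which were below 0. *Dlgap2* and *Dlg3* thus lie close to the cut of 5 kb, and annotation does not tell which transcripts were present. For *Dlg2* the longest, with 7813 bases, has its first coding base at 90504898, before the deposited locus begins at 91090706. The part of transcript length in the members' ratios was not tested.

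The scale of the libraries bears on the directions too. A single gene model held 44.7% of the FPKM total in WT and 39.2% in KO. Rescaling to equal totals (TPM) multiplies every KO to WT ratio of levels by 1.11, so that the members' median log2 ratio becomes 0.20 and 4 of 10 are 1.2-fold higher, beside 26.1% of all genes. Another scale was centred on genes with a transcript of at least 5 kb and a mean of at least 1 FPKM. On it the members' median becomes -0.03, with 4 above 0 and 6 below. There 1 gene is 1.2-fold higher and 2 lower, beside 5.13% and 16.8% of all genes. *Dlg3* and *Dlg4* remained below 0 and *Dlg2*, *Dlgap1*, *Dlgap2* and *Shank1* above 0 under each of these scales, whereas *Dlg1*, *Dlgap3*, *Shank2* and *Shank3* did not keep their sign under all of them.

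The deposited values carry no counts, and a rough depth was estimated from the spacing of low FPKM values. With the shortest complete coding transcript of each gene, this gave from 667 (WT) and 752 (KO) fragments for *Shank3* to 9340 and 11423 for *Shank1*. Longer transcripts would give more fragments and smaller errors. For *Shank3* the transcript used has 1337 bases and the longest 7365, so its place in this order depends on the choice. On that estimate the counting error of a member's KO to WT ratio ranged from 1.40% for *Shank1* to 5.32% for *Shank3*, and it was 1.91% for *Dlg2* and 3.85% for *Dlgap2*. The ratios of *Dlgap3* and *Shank2* lay within this error of 1. It covers counting alone and says nothing of the difference between mice.

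Several lists of cell-type markers lay further from equal levels than the scaffold genes. All 8 striatal neuron markers were 1.2-fold lower in KO, 5 of them 2-fold, and their summed level was 205 FPKM (WT) and 75.4 FPKM (KO). All 7 oligodendrocyte markers were 1.2-fold lower, with sums of 1535 and 1048 FPKM. The 3 choroid plexus markers summed to 226 and 4.76 FPKM, most of it from the single gene *Ttr* (221 and 3.71 FPKM). Markers of excitatory neurons, the main cells with such synapses in cortex, summed to 410 and 455 FPKM with 4 of 4 above 0, and inhibitory neuron markers to 395 and 400 FPKM. All 6 activity-induced genes were 2-fold higher in KO, summing to 106 FPKM (WT) and 338 FPKM (KO). *Dlgap3* and *Shank3* are known to be abundant in striatum, and in bulk tissue fewer cells of a type and less RNA per cell cannot be told apart. The part of these markers in the scaffold values was not tested.

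The proportions of isoforms differed between the libraries by a shift of at least 0.1 for 5 of the 10 genes. The isoform shift of a gene is 50% of the summed absolute differences between its isoforms' shares, so that 0 means equal proportions. It was 0.143 for *Dlg1*, 0.139 for *Dlg3*, 0.129 for *Shank3*, 0.115 for *Dlgap3* and 0.103 for *Shank2*. The other genes had shifts from 0.0312 (*Dlgap1*) to 0.0589 (*Dlg2*), and 0 of 10 reached 0.2. Of 4555 genes that reached 10 FPKM in both, 22.6% had a shift of at least 0.1 and 3.53% of at least 0.2. Among the 3290 of these with at least 4 isoforms, as all members have, it was 28.5% and 4.47%, and the median was 0.0651 against 0.0809 for the members. At a floor of 1 FPKM the share past 0.1 was 34.0%.

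**Figure D3:**
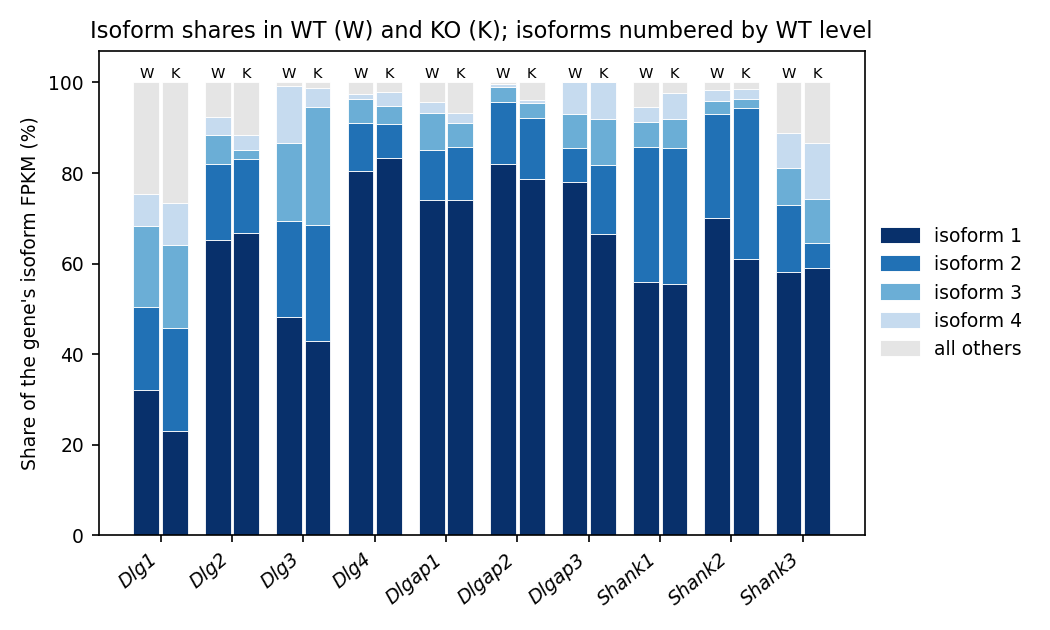
Share of each gene's summed isoform FPKM, in percent, in the WT (W) and KO (K) library for the 10 scaffold genes, with isoforms numbered within a gene by their WT level and the remaining isoforms pooled in grey. Isoform 1 is the largest in both libraries for all 10 genes; its share differs most for *Dlgap3* (78.0% and 66.5%), *Shank2* (70.1% and 61.1%) and *Dlg1* (32.0% and 23.1%).

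The isoforms carry no transcript identifiers in the deposited table and are numbered here by their WT level within each gene. Fragments that match several isoforms were shared out by estimate, an uncertainty that the values do not show. The leading isoform in WT also led in KO for 10 of 10 genes. *Dlg1*, with 15 listed isoforms, had the lowest share in its leading isoform of the 10 genes. Its isoform 1 was at 23.6 (WT) and 17.3 FPKM (KO), or 32.0% and 23.1% of the gene. Isoform 2 was at 13.5 and 17.0 FPKM, and isoform 3 at 13.2 and 13.8 FPKM. The share of isoform 1 thus differed by -8.90 points (KO minus WT) in a gene whose level as a whole was nearly equal.

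In *Dlg3* the lower gene level lay in 2 of its 4 abundant isoforms. Isoform 1 was at 24.3 FPKM (WT) against 18.8 FPKM (KO), and isoform 4 at 6.36 and 1.79 FPKM, 12.6% and 4.07% of the gene. Isoform 3 went the other way, at 8.70 FPKM in the WT library and 11.4 FPKM in the KO library, and isoform 2 was at 10.7 and 11.3 FPKM. *Dlg4* was dominated by a single isoform in both libraries, at 106 (WT) and 96.1 FPKM (KO), or 80.5% and 83.3%. Its second isoform was at 13.7 and 8.60 FPKM. The abundant isoforms of *Dlg2* were both higher, with 48.8 and 60.5 FPKM for isoform 1 and 12.5 and 15.0 FPKM for isoform 2.

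*Dlgap3* was at nearly equal levels as a gene, with a difference of -11.5 points (KO minus WT) in the share of its leading isoform. Isoform 1 was at 27.4 FPKM (WT) against 23.4 FPKM (KO), and isoform 2 was at 2.65 and 5.35 FPKM, 7.54% and 15.2% of the gene. Isoform 3 was at 2.63 and 3.59 FPKM. Both abundant isoforms of *Dlgap1* were higher in KO, isoform 1 at 105 and 125 FPKM (74.1% and 74.0%) and isoform 2 at 15.8 and 19.9 FPKM. Isoform 3 went the other way, at 11.5 and 8.73 FPKM, or 8.09% and 5.18% of the gene. *Dlgap2* likewise had 10.7 and 13.8 FPKM in isoform 1 and 1.81 and 2.34 FPKM in isoform 2.

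Among the SHANK genes, *Shank2* had the plainest exchange between isoforms. Isoform 1 was at 15.9 FPKM (WT) and 14.2 FPKM (KO) and isoform 2 at 5.19 and 7.70 FPKM, so that their shares went from 70.1% and 22.9% to 61.1% and 33.2%. In *Shank3*, isoform 1 was steady at 58.2% and 58.9% of the gene, at 10.3 and 11.2 FPKM. Its isoform 2 was at 2.59 (WT) and 1.05 FPKM (KO), and isoform 4 at 1.39 and 2.38 FPKM. These are low levels, and by its shortest complete coding transcript *Shank3* also had the lowest estimated number of fragments, 667 in WT. *Shank1* had nearly equal proportions, with isoform 1 at 28.7 and 33.1 FPKM and isoform 2 at 15.2 and 17.9 FPKM.

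Of the 94 isoforms, 47 had a mean of at least 1 FPKM, 25 made up at least 10% of their gene in either library, and 15 were listed at 0 in both. Another 3 were listed at 0 in WT only and 2 in KO only. A share differed by at least 5 points for 9 isoforms. The matching shares over the isoforms of all genes were not computed, so nothing is read from these counts. With 1 FPKM added, 1 of the 47 isoforms with a mean of at least 1 FPKM was 2-fold higher in KO. It was isoform 6 of *Dlgap1*, at 2.10 FPKM (WT) against 5.38 FPKM (KO). The 3 of the 47 that were 2-fold lower were isoform 7 of *Dlg1* (3.004 and 0.505 FPKM), isoform 3 of *Dlg2* (4.72 and 1.83 FPKM) and isoform 4 of *Dlg3*. Except the *Dlg3* isoform, these made up less than 10% of their gene, and they are named because their values passed the size. Of the 18699 isoforms past the same floor of 1 FPKM in all genes with several isoforms, 1.65% were 2-fold higher and 1.60% lower.

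**Figure D4:**
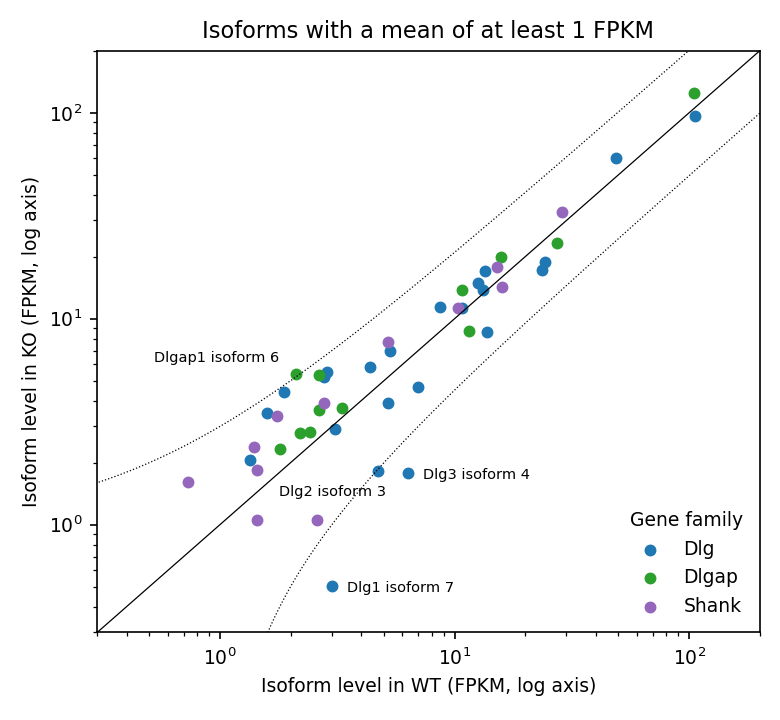
Level of each scaffold isoform with a mean of at least 1 FPKM in the WT (x) and KO (y) library, both on log axes in FPKM and coloured by gene family. The solid line marks equal levels and the dotted curves a 2-fold difference after 1 FPKM is added; 4 labelled isoforms lie on or beyond the curves, all with less than 10 FPKM in both libraries.

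RBFOX proteins bind the sequence TGCATG in RNA. In the last 1000 bases of the transcript with the longest coding sequence, TGCATG on the RNA strand was found in 2 of 10 scaffold genes, *Dlg4* and *Shank3*, with 2 copies each, against 26.6% of 11514 genes. Its reverse complement CATGCA, which overlaps it by sharing CATG or TGCA, was found in the same 2 genes and in 25.1% of all. The *Dlg2* start printed above holds 1 TGCATG, whose last bases are the first of its capitals. It is the one match among the 12 distinct DLG coding starts. Over all genes only 1 start per gene was searched, that of the transcript with the longest coding sequence. There the first 36 coding bases hold TGCATG in 0.589% and CATGCA in 0.409% of 12214 genes. For *Dlg2* that transcript has another start, before the deposited locus and without TGCATG, so the 12 starts and this share are not like measures. A match is a run of letters and not a shown site. Introns, where RBFOX proteins mostly bind, were not searched.

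The study's table of exons with altered use was read for positions alone. In the rows held, 1 exon of the 10 genes appears, exon E003 of *Dlg2*. Its 255 held bases lie on chromosome 7 from 91090729 to 91090983 in the first exon of 3 annotated *Dlg2* transcripts. They are upstream of the first coding base of the cysteine-bearing start, at 91091007, and are thus untranslated in the coding ones.

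The partners of the scaffold were described by 6 lists with 71 genes of at least 1 FPKM. Of these, 13 were 1.2-fold higher in KO and 5 lower, 0 were past 2-fold, and the median log2 ratio was 0.03 with 40 above 0 and 31 below. In the all-gene background 10.8% were higher and 8.14% lower. The partner counts were not made on the other scales. There 26.1% (TPM) and 5.13% (centred on long transcripts) of all genes were 1.2-fold higher. Whether the partners differ from all genes was not tested. The 6 NMDA receptor subunits, glutamate-gated channels held by the DLG proteins, had a median of 0.11 with 2 higher and 0 lower. *Grin2b* was at 28.6 FPKM (WT) and 42.0 FPKM (KO) (log2 ratio 0.54), and *Grin2a* at 14.1 and 19.3 FPKM (0.43). *Grin1*, the obligatory subunit, was at 64.4 and 60.4 FPKM (-0.09), and *Grin2c* at 6.51 and 5.52 FPKM (-0.20).

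Of 14 membrane proteins held by DLG proteins, 2 were higher and 1 lower, with a median of 0.06. The potassium channel genes *Kcna2* (18.4 and 26.5 FPKM) and *Kcna1* (35.96 and 26.9 FPKM) lay at opposite ends, at 0.50 and -0.41. *Lrrtm2*, a synaptic adhesion gene, was at 30.3 and 40.6 FPKM, and *Cacng8*, an auxiliary AMPA receptor subunit, at 22.7 and 19.2 FPKM. The 18 cytosolic partners of DLG proteins had a median of 0.00, with 5 higher and 2 lower. *Frmpd4*, which encodes the spine protein PRESO, was at 13.5 and 19.7 FPKM (0.51) and *Lrrc7*, which encodes densin, at 13.4 and 18.1 FPKM (0.40). *Tanc1*, another scaffold gene, was at 6.55 and 4.03 FPKM (-0.59), and *Nos1*, the neuronal nitric oxide synthase, at 4.35 and 3.16 FPKM (-0.36).

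On the inner side, 12 partners of SHANK and DLGAP proteins had a median of -0.04, with 1 higher and 2 lower. The HOMER genes, whose proteins link SHANK to metabotropic glutamate receptors, lay at both ends. *Homer1* was at 112 (WT) and 75.4 FPKM (KO) (-0.56) and *Homer3* at 1.81 and 1.09 FPKM (-0.43), while *Homer2* was at 9.56 and 13.1 FPKM (0.42). *Sptan1*, a spectrin gene listed as *Spna2*, was at 143 and 162 FPKM (0.18).

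In a list of 8 palmitoylating and depalmitoylating enzyme genes drawn up for PSD95, 0 were past 1.2-fold in either direction and the median was -0.005. Whether each enzyme acts on PSD95 was not tested. The palmitoyl transferase genes *Zdhhc8* (0.14) and *Zdhhc5* (0.13) were highest and the depalmitoylating *Abhd17a* (-0.24, listed as *Fam108a*) and *Abhd17b* (-0.08) lowest. The 13 other membrane-associated guanylate kinase and LIN7 genes had a median of 0.11, with 3 higher and 0 lower. *Mpp6* was at 20.1 and 24.7 FPKM (0.29) and *Cask* at 26.9 and 32.8 FPKM (0.28), while *Lin7c* (-0.05) and *Magi3* (-0.02) were lowest. These ratios had the same reference libraries as those of the scaffold genes.

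**Figure D5:**
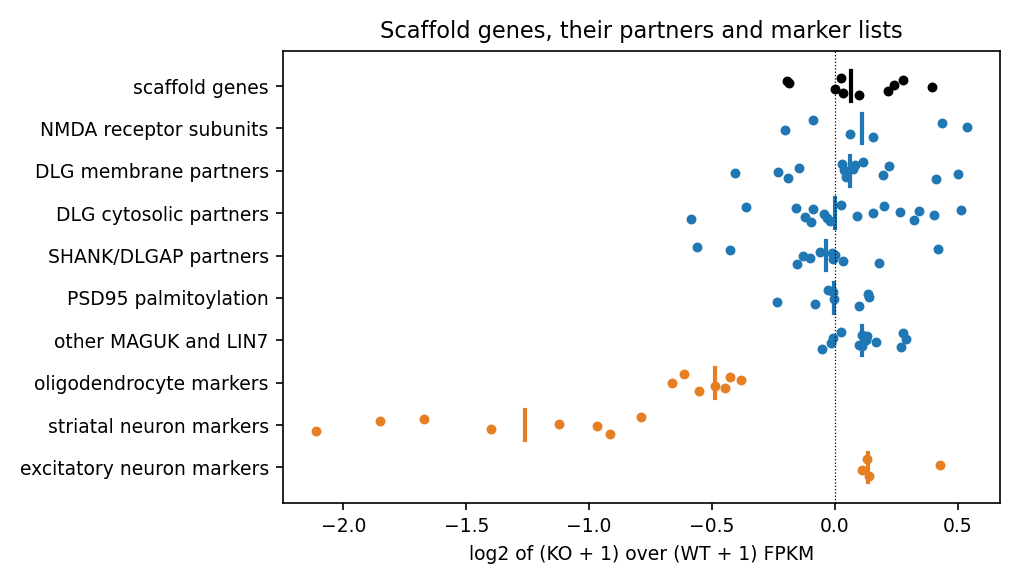
Log2 of (KO + 1) over (WT + 1) FPKM of single genes (points) with the median of each list (bar), for the 10 scaffold genes (black), 6 lists of partner genes (blue) and 3 lists of cell-type markers (orange). Scaffold genes and partners lie between -0.59 and 0.54 with medians from -0.04 to 0.11, whereas the striatal markers have a median of -1.26 and the oligodendrocyte markers of -0.49.

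Exons of *Shank1* overlap other annotated genes over 3.22% of their bases, *Shank3* over 2.95% and *Dlgap1* over 0.514%, all on the opposite strand, and *Dlg2* over 1.38% on the same strand. The library kit keeps the strand, but whether counting used it is not given in the sources used here. The other 6 members have no such overlap.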

How the data were processed

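The deposited gene and isoform tables hold FPKM values that the authors made from 1 WT and 1 KO cortex library. The submitters' processing notes name TopHat, Cufflinks and GRCm38, without versions. Deposited columns of the authors' own folds, p-values and q-values were not used. The extraction note in the labels covers cortex or hippocampus and names another kit than the methods. Both libraries are labelled as cortex. No columns of other samples were used.

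Python 3.11.15, numpy 2.4.6 and pandas 2.3.3 were used. Folds are FPKM ratios. Log2 ratios were computed with 1 FPKM added, for genes averaging at least 1 FPKM. Ratio and shift computations were tested on small examples with known answers. Fold counts were tested on changes planted in the WT values, and the depth estimate on simulated counts. Named genes are all 10 members, isoforms with at least 10% of a gene, and the 2 highest and 2 lowest genes of each partner list. Isoforms past 2-fold, isoform 3 of *Dlgap1*, *Dlgap4*, *Rbfox3* and *Ttr* are named besides. The members and lists were chosen with earlier results of these data known. Coordinates are 1-based, from the deposited table and GENCODE vM21, both GRCm38. Alternatives were other scales, added values and filters. The length strata, the background of genes with at least 4 isoforms and the motif windows were chosen after seeing the data.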

Additional observations from a re-analysis of the deposited data

How the results depend on the processing

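In all, 112 alternative values were computed for the scaffold genes and families, and 93 of them stayed within the tolerances set (0.1 on the log2 scale, 0.05 in shift, 10% of a family sum, 5 points of a share), 19 moved and 0 differences of 1.2-fold reversed. Many of the 93 could hardly move. Summed isoforms nearly repeat the gene values, and centring subtracts a single constant from every log2 ratio. The tally is therefore no measure of how firm the values are. Rescaling to TPM gave 15 of the 19, and it multiplies every KO to WT ratio of levels by 1.11. The median log2 ratio became 0.20, the KO to WT ratio of summed levels became 1.09 for DLG, 1.29 for DLGAP and 1.23 for SHANK genes, and 4 genes were 1.2-fold higher. Centring on genes of at least 10 FPKM left 1 gene 1.2-fold higher. Centring on genes with a transcript of at least 5 kb and a mean of at least 1 FPKM left 1 gene higher and 2 lower. Its constant was just under the tolerance of 0.1, so each gene's log2 ratio and the median were tallied as unmoved. The median nevertheless went from 0.07 to -0.03, and *Dlg1*, *Dlgap3*, *Shank2* and *Shank3* changed sign. At a shift of at least 0.2 the count of genes was 0. Adding 0.1 FPKM in place of 1, summing isoforms, changing the floor on FPKM and leaving out isoforms under 5% kept the counts of genes within 1.5 times. No paired analysis was possible because each genotype has 1 library, and for the same reason no library could be left out. The planned search for TGCATG in introns beside exons was not run.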
